A study of Mus musculus with 12 samples.

Results

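Small nucleolar RNA (snoRNA) host long noncoding RNAs were examined in 3 mouse melanocytic cell lines, with and without SX-682. The 10 genes are Gas5, Snhg1, Snhg3, Snhg5, Snhg6, Snhg8, Snhg12, Snhg15, Zfas1 and Epb41l4aos, chosen by symbol among the 34513 genes of the deposited count table. Of these, 9 passed the expression filter and were tested, and Snhg3 did not.

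SX-682 is an inhibitor of the chemokine receptors CXCR1 and CXCR2, and the comparison asks how melanocytic cells themselves respond to it in culture. Melan-A is a nontumorigenic mouse melanocyte line, and B16F0 and B16F10 are melanoma lines, B16F10 having been selected from B16 for metastasis to lung. The 6 groups were untreated Melan-A, Melan-A with SX-682, untreated B16F0, B16F0 with SX-682, untreated B16F10 and B16F10 with SX-682, with 2 libraries each. The controls received no treatment according to the labels, so a vehicle cannot be told apart from the drug, and the dose and time for the sequenced cultures are not given in the sources used here. The study describes a dose, a duration and a DMSO control for growth assays of these lines, without saying that the sequenced cultures were handled alike. Each kind of cell is represented by 1 line, so a difference between lines cannot be assigned to malignancy. The labels do not say that the 2 libraries of a group came from separate cultures, and p-values then measure only the spread between these libraries, which may be technical.

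snoRNAs are short nuclear RNAs that guide chemical modification of other RNAs. Box C/D snoRNAs direct ribose methylation and box H/ACA snoRNAs direct pseudouridylation, mainly of ribosomal RNA. Most vertebrate snoRNAs are released from introns of a host transcript. The spliced exons of the noncoding hosts often begin with a cytosine and a run of pyrimidines, the 5′ terminal oligopyrimidine start that they share with ribosomal protein mRNAs, and several are degraded on the ribosome by nonsense-mediated decay, so that their level depends on translation as well as on transcription. Gas5 was named for its accumulation in growth-arrested cells.

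The host label was checked against the GENCODE M21 annotation, in which 32 snoRNA genes lie inside the spans of the 10 genes on the same strand. By symbol, 6 of the 10 hold a box C/D (Snord) gene: Gas5, Snhg1, Snhg5, Snhg6, Snhg12 and Zfas1. Another 3 hold only box H/ACA (Snora) genes, namely Snhg3, Snhg8 and Snhg15, and the symbol of the single snoRNA inside Epb41l4aos, Gm23639, gives no class. They are therefore called snoRNA-host long noncoding RNAs (lncRNAs) here. Only 3 of the 32 snoRNAs are themselves in the count table, and they hold few reads over all 12 libraries, 35 for Snord87 in Snhg6, 79 for Gm23201 in Zfas1 and 6 for Gm23639. The snoRNA output of these loci was thus not measured, and all values below describe the host transcripts.

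Host transcripts of Gas5 (chr1:161034422-161038539, plus strand of GRCm38) enclose 9 snoRNA genes, Snord78, Snord80 and Snord47 among them. Another of the 9 is Mir5117, typed as a snoRNA in M21 but with a microRNA symbol. Snhg1 (chr19:8723475-8726443, plus strand) encloses 8, including Snord22. Snhg12 (chr4:132308623-132311024, plus strand) encloses Snora16a, Snora44, Snora61 and Snord99. Zfas1 (chr2:167062934-167065862, plus strand) encloses Snord12 and 2 others. The remaining hosts are simpler. Snhg5 (chr9:88495268-88523562, minus strand) carries Snord50a and Snord50b, Snhg6 (chr1:9941959-9944118, minus strand) carries Snord87, Snhg8 (chr3:123507552-123508404, minus strand) carries Snora24, and Snhg15 (chr11:6525591-6528779, minus strand) carries Snora9. Snhg3 (chr4:132348014-132353686, minus strand) carries Snora73b and Snora73a. The spans are those of the table, and for Snhg5 and Snhg15 they differ from those of M21. The counted length covered 91.3% of the Gas5 span and 100% of those of Snhg1, Snhg8 and Snhg12, introns included, so spliced and unspliced RNA of these genes cannot be told apart.

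An annotated transcript that starts with C followed by at least 4 further pyrimidines was found in M21 for 7 of the 10 genes, a share of 70.0%. Among 18313 other tested genes the share was 8.86%, among the 7834 of them with at least 5 transcripts 15.05%, and among 84 cytosolic ribosomal protein genes 40.5%. Genes with many annotated transcripts have more chances to hold such a start, and Gas5 has 25 transcripts, 5 of them with a run. For Snhg12 it was 3 of 10 transcripts. A single transcript held the run in Snhg3, Snhg6 and Zfas1 (1 of 5 each), Snhg5 (1 of 6) and Snhg8 (1 of 3). The first 30 bases of 1 such transcript per gene are shown because they carry the feature that the hosts share with ribosomal protein genes. Capitals mark the leading pyrimidine run, and the sequences are from GENCODE M21 on GRCm38.
Gas5: CTTTCggagctgtgcggcattctgagcagg
Snhg3: CTCTCTaggcgtcgctctcttggtgtgctt
Snhg5: CTTTTacgacggagcctaagatattctttg
Snhg6: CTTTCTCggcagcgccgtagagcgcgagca
Snhg8: CCCTCgcgcgcaggctcttgggagagcgtc
Snhg12: CCTTTCTCgcttcatccgcggtccctgtct
Zfas1: CCTTTCgttccggcggctcctagagcgttt
The runs were between 5 and 8 bases long, the longest being that of Snhg12. Snhg1, Snhg15 and Epb41l4aos had no annotated start of this kind. A match is a description of the annotation, and start sites were not measured in these data.

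RefSeq promoter windows of 300 bases, most of them before the annotated start, were matched for 8 of the 10 genes, with 9 windows in all because Gas5 has a pair of starts. The letters TATA lay on the gene's strand 40 to 16 bases before the start in 5 of the 9 windows, against 5.91% of all 32851 promoters. The palindrome TGACGTCA, the binding sequence of the CREB and ATF family, was found in 2 of the 9, those of Gas5 and Snhg15, against 1.79% of all. CACGTG was found in 1 of the 9 windows (7.15% of all), CCAAT in 3 (37.4%) and TGATGNAA in 0 (3.97%), each searched on both strands. The 5 windows with TATA are shown from 60 bases before to 15 bases after the start on the gene's strand (GRCm38.p6). Capitals mark TATA, extended where matches overlap, and TGACGTCA.
Gas5: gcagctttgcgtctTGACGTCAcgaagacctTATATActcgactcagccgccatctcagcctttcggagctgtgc
Snhg8: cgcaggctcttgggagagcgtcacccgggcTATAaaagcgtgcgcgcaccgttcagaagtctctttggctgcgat
Snhg12: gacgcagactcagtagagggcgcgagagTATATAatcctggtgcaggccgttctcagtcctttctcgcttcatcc
Snhg5: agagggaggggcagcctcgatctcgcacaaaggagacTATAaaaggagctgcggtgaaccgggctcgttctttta
Snhg1: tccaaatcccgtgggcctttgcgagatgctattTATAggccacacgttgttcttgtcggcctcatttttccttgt
These windows are chr1:161035106-161035180, chr3:123508322-123508396, chr4:132308618-132308692, chr9:88522883-88522957 and chr19:8723427-8723501. Among the transcripts printed above that have a RefSeq window, only that of Gas5 starts at a RefSeq start. Those of Snhg3, Snhg5, Snhg8, Snhg12 and Zfas1 start at another base in M21. The Zfas1 transcript starts at chr2:167063221, outside its window of chr2:167062684-167062983. GENCODE M21 starts the Snhg8 transcript shown above at chr3:123508404, upstream of the RefSeq window printed here. Bases printed above as part of that transcript therefore lie before TATA and the RefSeq start in this window. Factor binding was not measured, and a match is not a bound site.

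Levels are given as CPM, read counts relative to the library total after scaling by the trimmed mean of M-values (TMM). Library totals ranged from 48876982 to 85322092 counts, at which 3 counts, the floor used here, equal 0.033 to 0.0623 CPM for counting error only. Mitf, Sox10, Dct, Tyrp1 and Mlana, markers of the pigment lineage, were present in every group. Tyr and Pmel were low in untreated Melan-A (means of 0.826 and 8.11 CPM) against untreated B16F0 (515 and 4512 CPM) and B16F10 (68.1 and 5337 CPM). Tyrp1 (107 against 6438 and 8360 CPM), Dct (355 against 5690 and 8673), Mlana (116 against 648 and 1011) and Mitf (102 against 367 and 420) were also lower there. Sox10 was not, at 670 CPM against 453 and 586 CPM. Markers of keratinocytes, leukocytes and endothelial cells were mostly at or near 0, with Ptprc, Cd3e, Itgam, Krt5, Krt1 and Kdr below 0.2 CPM in all group means. The highest group means were 2.30 CPM for Trp63 (untreated Melan-A) and 1.51 CPM for Pecam1 (Melan-A with SX-682). They were 0.483 CPM for Krt14 (B16F10 with SX-682) and 0.458 CPM for Cdh5 (Melan-A with SX-682). The macrophage marker Cd68 had a mean of 16.02 CPM in untreated Melan-A and 44.6 CPM with SX-682, against 25.97 and 24.5 CPM in B16F10. The fibroblast marker Col1a1 had means of 46.4 and 46.01 CPM and Lum of 7.1 and 1.33 CPM in Melan-A without and with the drug. Among untreated lines Dcn was also highest in Melan-A (2.501 CPM). Not every fibroblast marker was highest there. Col1a2 was lowest in untreated Melan-A (0.764 CPM against 2.36 in B16F0 and 5.14 in B16F10), and Pdgfra was highest in untreated B16F0 (8.11 CPM). The part of these markers in the results was not tested.

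In untreated cells the 9 tested lncRNAs summed to 217 ± 2.18 CPM in Melan-A, 319 ± 0.798 CPM in B16F0 cells and 136 ± 0.350 CPM in B16F10 cells (mean ± SD, n = 2). With SX-682 the sums were 338 ± 2.80, 584 ± 24.2 and 332 ± 17.0 CPM. Gas5 supplied between 46.4% and 51.8% of the sum in each of the 12 libraries, so the sum largely follows that gene. These are bulk cultures, in which fewer cells with a transcript and less of it per cell cannot be told apart.

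Between genes, levels were compared per kilobase of counted length. This length covered 91.3% to 100% of the spans of Gas5, Snhg1, Snhg8 and Snhg12, but 53.1% for Snhg6 and 39.3% for Epb41l4aos. It exceeded the M21 exons of Snhg5 (3634 against 1730 bases) and Snhg15 (2652 against 1359) and fell short of those of Zfas1 (1901 against 2929). The part of these lengths in the order of genes was not tested. Gas5 was highest in untreated Melan-A and B16F0, at 29.0 and 43.3 CPM per kb. In untreated B16F10 the order was turned, with Snhg6 at 19.8 and Gas5 at 18.1 CPM per kb and no overlap between their libraries. Snhg8 stood at 24.3, 27.0 and 11.5 CPM per kb in Melan-A, B16F0 and B16F10, above Snhg6 in Melan-A (17.7) and below it in B16F0 (30.3) and B16F10. The lowest were Snhg15 in Melan-A (1.87 CPM per kb) and Snhg12 in both B16 lines (3.54 and 0.9997 CPM per kb). Neighbours in this order whose libraries overlapped were Snhg5 and Snhg12 in B16F0, and Snhg1 and Epb41l4aos in B16F10.

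SX-682 raised all 9 tested lncRNAs in each of the 3 lines, and lowered 0 of them (edgeR's quasi-likelihood test, Benjamini-Hochberg adjusted p under 0.05). Among all 18338 genes tested, 23.4% were called higher in Melan-A, and 25.1% and 25.5% were in B16F0 and B16F10, with 11.3% in all 3 lines. The shares called lower were 24.7% to 25.3%. With at least 10 counts required in every library, 8152, 8410 and 8738 of 12326 genes were called in either direction in Melan-A, B16F0 and B16F10. All 27 estimates for the lncRNAs were above 0, in DESeq2 as well. Among 2038 other lncRNA genes, 3.68% were called higher in all 3 lines, at a median of the mean log2 CPM of -1.68 against 4.44 for the 9. The median log2 fold change of the 9 was 0.84 in Melan-A, with 0.85 and 1.35 in B16F0 and B16F10, against 0 for all genes in every line. The treated and untreated libraries of a line did not overlap for any of the 9, which held in the upward direction for 36.0%, 35.4% and 35.2% of all genes.

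**Figure D1:**
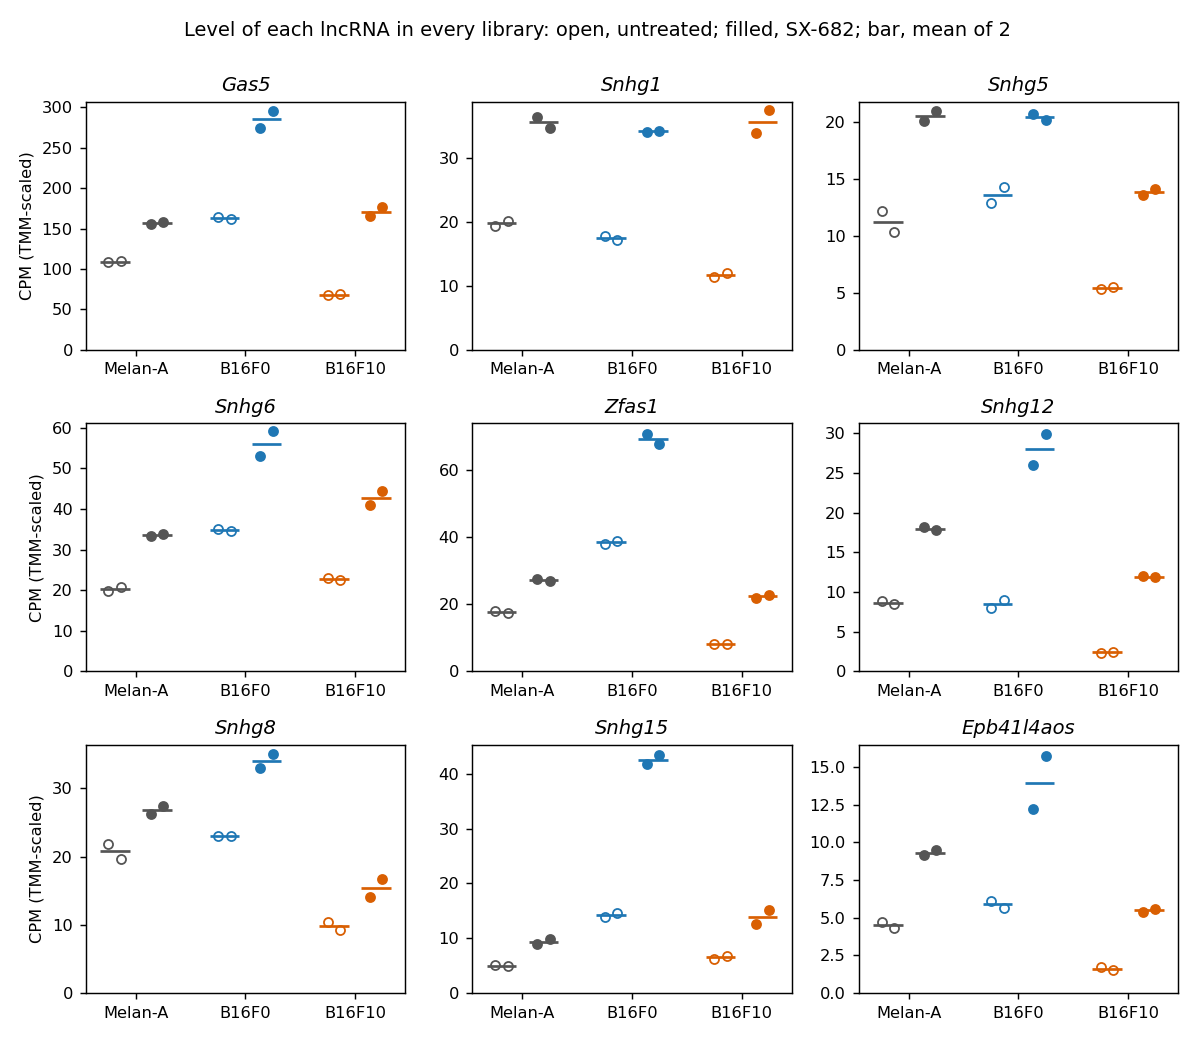
TMM-scaled CPM (y axis, linear from 0, its own scale for each gene) of the 9 tested lncRNAs in every library, by cell line (x axis). Open points are untreated libraries, filled points SX-682 libraries and bars the mean of 2. In every panel both filled points of a line lie above both open ones.

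Gas5, a decoy for the glucocorticoid receptor as well as a snoRNA host, had the highest CPM, although not per kilobase in untreated B16F10, where Snhg6 was higher. Its level was 109 and 110 CPM in the untreated Melan-A libraries and 156 and 159 CPM with SX-682. In B16F0 it was 165 and 161 CPM without and 275 and 295 CPM with the drug, and in B16F10 67.5 and 68.5 against 166 and 176 CPM. The treated B16F10 libraries thus lay just above the untreated B16F0 libraries, although the untreated B16F10 libraries were the lowest of all 12. The fold change was 1.44, 1.75 and 2.52 in the same order of lines, or 0.53 ± 0.03, 0.81 ± 0.03 and 1.33 ± 0.03 on the log2 scale (± SE, adjusted p of 2.94e-14, 8.63e-19 and 2.48e-23 in edgeR's quasi-likelihood test).

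Snhg1, the host of Snord22 and 7 further snoRNAs, was at 19.4 and 20.3 CPM in untreated Melan-A, 17.9 and 17.2 in B16F0 and 11.4 and 11.97 in B16F10. With SX-682 the libraries read 36.5 and 34.8, 34.2 and 34.4, and 33.9 and 37.6 CPM in the same order of lines. The lines differed 1.70-fold between the highest and lowest mean before treatment and 1.04-fold after it. The log2 fold changes were 0.84 ± 0.06, 0.96 ± 0.06 and 1.61 ± 0.06 (adjusted p of 1.72e-13, 2.64e-14 and 4.64e-19).

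Zfas1 starts beside Znfx1 on the opposite strand and encloses Snord12. It was at 18.0 and 17.3 CPM in untreated Melan-A and 27.5 and 27.0 CPM with SX-682. In B16F0 the values were 38.0 and 38.8 against 70.7 and 67.7 CPM, and in B16F10 8.09 and 8.01 against 21.9 and 22.8 CPM. B16F0 was the highest line and B16F10 the lowest both with and without the drug. The log2 fold changes were 0.63 ± 0.05, 0.85 ± 0.05 and 1.47 ± 0.06.

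Snhg5, the Snord50a and Snord50b host, was at 12.2 and 10.3 CPM in untreated Melan-A, 12.9 and 14.3 in B16F0 and 5.34 and 5.52 in B16F10. With SX-682 it was at 20.1 and 21.01, 20.7 and 20.2, and 13.6 and 14.1 CPM. Melan-A and B16F0 overlapped after treatment, and B16F10 stayed lower. The log2 fold changes were 0.87 ± 0.08, 0.59 ± 0.08 and 1.35 ± 0.09, the smallest of them in B16F0.

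Snhg6, the Snord87 host, read 19.9 and 20.7 CPM in untreated Melan-A, 34.9 and 34.6 in B16F0 and 23.0 and 22.5 in B16F10. With SX-682 the values were 33.3 and 33.7, 53.1 and 59.1, and 41.0 and 44.5 CPM. Its log2 fold changes lay close together, at 0.72 ± 0.05, 0.69 ± 0.05 and 0.91 ± 0.06.

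Snhg12, which carries 3 H/ACA snoRNAs and Snord99, had the largest estimated rise of the 9 in each line, though in Melan-A by less than the SE (Epb41l4aos followed there with 1.05). It went from 8.84 and 8.49 to 18.2 and 17.8 CPM in Melan-A, from 8.01 and 8.98 to 26.1 and 29.9 CPM in B16F0, and from 2.32 and 2.49 to 12.01 and 11.8 CPM in B16F10. In raw reads the last of these is 140 and 159 counts against 728 and 693. The fold change was 2.08, 3.29 and 4.96 in the same order, or 1.06 ± 0.08, 1.72 ± 0.08 and 2.31 ± 0.11 on the log2 scale (adjusted p of 2.5e-12, 4.89e-17 and 2.1e-17 in edgeR's quasi-likelihood test). In B16F10 this placed Snhg12 at rank 630 of 18338 genes by log2 fold change.

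Of the tested hosts of H/ACA snoRNAs alone, Snhg8 had the smallest estimate of the 9 in each line. In B16F0 this was by less than the SE, with Snhg5 at 0.59. Snhg15 stood next to Snhg12 in B16F0, but lower in the order in Melan-A and B16F10. Snhg8, the Snora24 host, was at 21.9 and 19.6 CPM in untreated Melan-A against 26.3 and 27.4 with SX-682. In B16F0 it was at 23.0 and 23.1 against 33.0 and 35.1 CPM, and in B16F10 at 10.5 and 9.23 against 14.1 and 16.7 CPM. The log2 fold changes of Snhg8 were 0.37 ± 0.07, 0.56 ± 0.07 and 0.64 ± 0.08, the first with the highest adjusted p of the 27 tests, 3.3e-05.

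Snhg15, the Snora9 host, was at 5.06 and 4.87 CPM in untreated Melan-A and 8.84 and 9.87 with SX-682. In B16F0 it stood at 13.9 and 14.5 against 41.8 and 43.3 CPM, and in B16F10 at 6.22 and 6.77 against 12.5 and 15.2 CPM. The log2 fold changes were 0.92 ± 0.09, 1.58 ± 0.08 and 1.09 ± 0.09. It was the single lncRNA of the 9 with its largest change in B16F0, and the lines lay 2.86-fold apart without and 4.55-fold apart with the drug.

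Epb41l4aos, named for its position on the strand opposite to Epb41l4a, had the lowest mean CPM of the 9 tested lncRNAs in every group. In Melan-A with SX-682 its libraries overlapped those of Snhg15. It was at 4.68 and 4.34 CPM in untreated Melan-A and 9.17 and 9.46 with SX-682. In B16F0 it was at 6.11 and 5.67 against 12.2 and 15.7 CPM, and in B16F10 at 1.70 and 1.52 against 5.38 and 5.59 CPM. The log2 fold changes were 1.05 ± 0.11, 1.24 ± 0.11 and 1.77 ± 0.15. Its treated B16F0 libraries lay furthest apart, and the higher came from the library with the smallest total.

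Snhg3, the host of the H/ACA snoRNAs Snora73a and Snora73b, held between 0 and 6 counts in a library and was not tested. In M21, 71.5% of its exonic bases are shared with Gm17300 on the opposite strand and 13.7% with Rcc1 on the same strand, and the counting rule and its treatment of strand are not given in the sources used here. Whether reads of Snhg3 were left uncounted or counted elsewhere was not tested, and the near-zero row was not read as absence of the transcript. Rcc1, a chromatin-bound exchange factor for Ran, fell by 0.55, 0.54 and 0.83 on the log2 scale with SX-682. For Snhg6 11.1%, and for Zfas1 2.80%, of exonic bases are shared with a gene on the opposite strand.

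**Figure D2:**
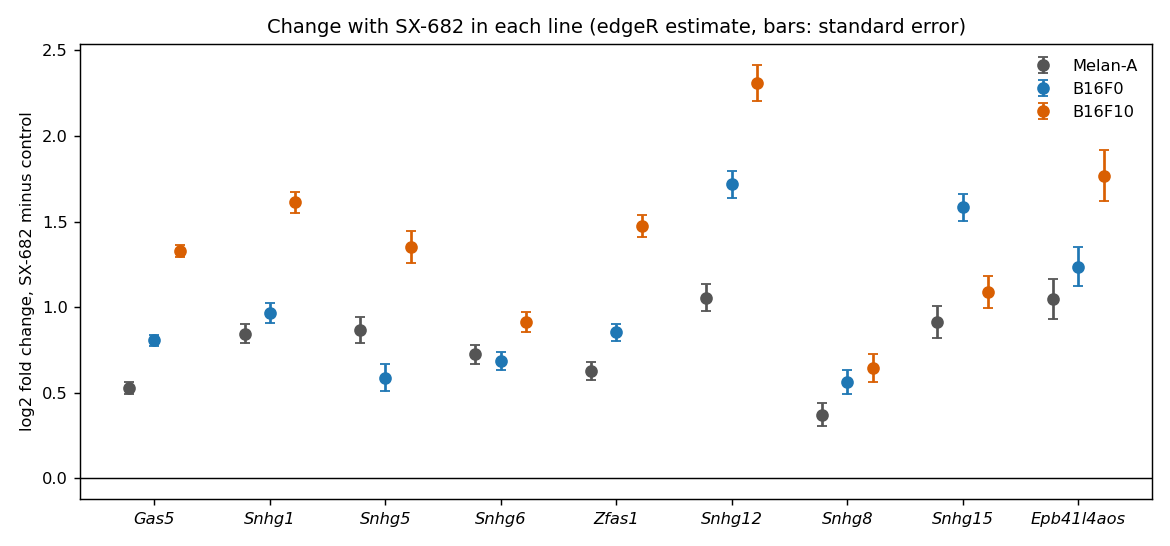
log2 fold change with SX-682 (y axis, edgeR estimate, bars ± SE) for the 9 tested lncRNAs (x axis) in Melan-A (grey), B16F0 (blue) and B16F10 (orange). All 27 estimates lie above 0, from 0.37 for Snhg8 in Melan-A to 2.31 for Snhg12 in B16F10.

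**Figure D3:**
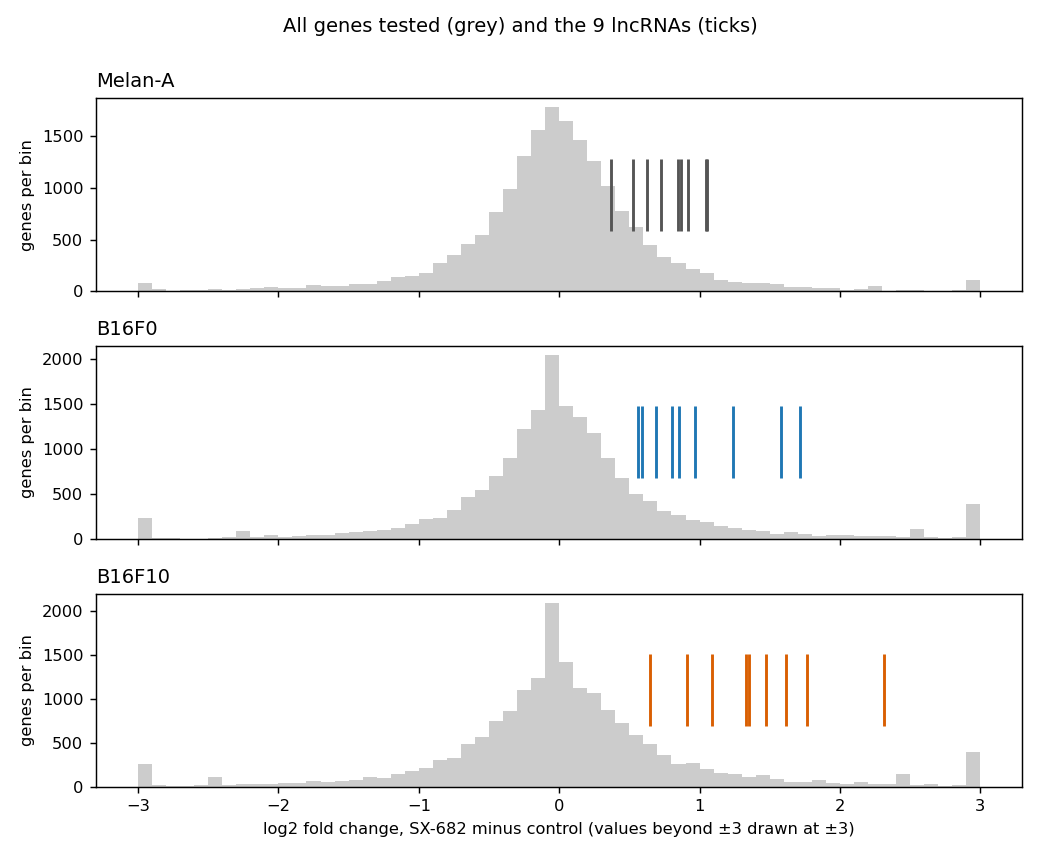
Number of genes per bin of 0.1 (y axis) by log2 fold change with SX-682 (x axis) for all 18338 tested genes (grey), one panel per line, with the 9 lncRNAs as vertical ticks, whose height carries no value. The ticks lie to the right of the median of 0 in each panel, and reach furthest in B16F10.

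The size of the change differed among the lines for 8 of the 9 lncRNAs (F-test of both interaction contrasts in edgeR), against 47.4% of all genes. With at least 10 counts required in every library, it differed for 8285 of 12326 genes and again for 8 of the 9 lncRNAs. Snhg8 was the exception, with an adjusted p of 0.0805. The mean change of the B16 lines was larger than that of Melan-A for 7 of the 9 and smaller for 0, where 18.7% of all genes were called higher and 17.1% lower, and all 9 estimates were above 0, in DESeq2 as well. The differences were largest for Snhg12 (0.96 ± 0.11), Gas5 (0.54 ± 0.04) and Zfas1 (0.54 ± 0.07), and were not called for Snhg5 (0.10 ± 0.10, adjusted p of 0.493) and Snhg6 (0.08 ± 0.07, adjusted p of 0.442). The Epb41l4aos call (0.45 ± 0.15) was lost without untreated or SX-682 Melan-A replicate 1 (0.0802 and 0.0655), SX-682 B16F0 replicate 2 (0.0617) or untreated B16F10 replicate 2 (0.0569). The Snhg8 call (0.23 ± 0.09, adjusted p of 0.0397) was lost in 8 of the 12 fits that left out a library (0.0561 to 0.303), and held without untreated Melan-A replicate 2, SX-682 B16F0 replicate 1, or untreated or SX-682 B16F10 replicate 1.

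Between the melanoma lines, B16F10 changed more than B16F0 for 7 of the 9 lncRNAs, a call made for 15.3% of all genes. Snhg5 (0.76 ± 0.12), Snhg1 (0.65 ± 0.09) and Zfas1 (0.62 ± 0.08) led on the log2 scale. Snhg15 differed the other way, by -0.49 ± 0.12 (adjusted p of 0.00204), and 14.9% of all genes were called in that direction. Snhg8 was not called (0.08 ± 0.11, adjusted p of 0.655). The Snhg6 call (0.23 ± 0.08) was lost without untreated B16F0 replicate 1 or 2 (adjusted p of 0.0728 and 0.0501), SX-682 B16F0 replicate 1 (0.211), or untreated or SX-682 B16F10 replicate 2 (0.0987 and 0.157). The Epb41l4aos call (0.53 ± 0.19) was lost without untreated or SX-682 B16F0 replicate 1 (0.107 and 0.207), untreated B16F10 replicate 2 (0.17), or SX-682 B16F10 replicate 1 or 2 (0.054 and 0.0806).

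For 8 of the 9, all but Snhg15, the highest and lowest line means were closer together with SX-682 than without it. Of 16242 genes above 0 in every group mean, 47.7% showed this. The ratio for Snhg12 was 3.61 without and 2.34 with the drug, for Zfas1 4.77 and 3.096, and for Gas5 2.40 and 1.81, whereas Snhg6 (1.71 and 1.67) and Snhg8 (2.34 and 2.21) barely moved. With SX-682, both B16F10 libraries exceeded both untreated Melan-A libraries for 8 of the 9, the exception being Snhg8 (15.4 against 20.8 CPM), where 39.2% of all genes did not overlap upward and 47.4% downward. These ratios use the same libraries as the fold changes above and are a description.

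Without treatment, B16F10 had the lowest level of all 3 lines for 7 of the 9 lncRNAs, and B16F0 the highest for 7. All 9 were lower in B16F10 than in B16F0, and their libraries did not overlap, where 31.2% of all genes were called lower and 30.8% higher, and 39.7% did not overlap in that direction. The log2 difference ranged from -0.59 ± 0.07 for Snhg1 to -2.25 ± 0.06 for Zfas1, with a median of -1.26 against -0.00165 for all genes. Zfas1 was thus 0.21 of its B16F0 level in B16F10, and Snhg12 and Epb41l4aos were 0.283 and 0.273 of theirs.

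Against Melan-A, untreated B16F10 was lower for 7 of the 9, where 40.8% of all genes were called lower, and higher for Snhg6 (0.16 ± 0.06) and Snhg15 (0.39 ± 0.10), where 33.4% were called higher. Snhg12 (-1.85 ± 0.11) and Epb41l4aos (-1.49 ± 0.15) showed the largest deficits. The Snhg6 call did not hold in DESeq2 (adjusted p of 0.0507), with at least 10 counts required in every library (0.118) or without untreated Melan-A or B16F10 replicate 1 (0.0743 and 0.0682).

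Untreated B16F0 was higher than Melan-A for 7 of the 9, where 35.3% of all genes were called higher. Snhg15 (1.52 ± 0.09), Zfas1 (1.12 ± 0.05), Snhg6 (0.78 ± 0.05) and Gas5 (0.58 ± 0.03) stood furthest above Melan-A. Snhg1 was lower (-0.18 ± 0.06, adjusted p of 0.00912), in the direction of 40.6% of all genes, and Snhg12 was not called (-0.03 ± 0.09, adjusted p of 0.764). The Snhg8 difference (0.15 ± 0.07, adjusted p of 0.0494) was lost in DESeq2 (0.163) and with RLE scaling (0.124), and without SX-682 Melan-A replicate 1 or 2 (0.054 and 0.0514), untreated Melan-A replicate 2 (0.394) or untreated B16F0 replicate 1 or 2 (0.119 and 0.111). Without untreated Melan-A replicate 2 or untreated B16F0 replicate 2, 5 of the 9 were called, with adjusted p of 0.0782 and 0.0883 for Snhg1 and 0.11 and 0.0579 for Snhg5. The 3 comparisons of untreated lines share libraries with one another and with the SX-682 comparisons.

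**Figure D4:**
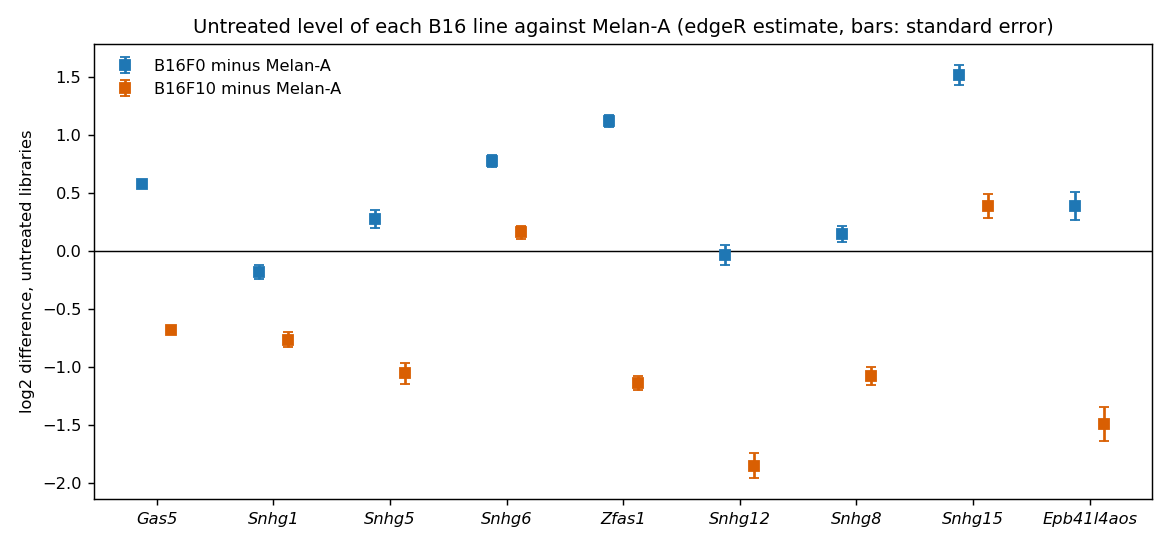
log2 difference between untreated lines (y axis, edgeR estimate, bars ± SE) for the 9 tested lncRNAs (x axis), B16F0 minus Melan-A (blue) and B16F10 minus Melan-A (orange). Orange lies below blue for every gene, and 7 of 9 orange points lie below 0.

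Over the 12 libraries, the profiles of the 9 lncRNAs were alike, with Pearson's r of log2 CPM between 0.54 and 0.98 over 36 pairs and a median of 0.87. The libraries share 6 groups and a common treatment, so r is given as a description. Snhg12 and Epb41l4aos were the most alike pair (0.98), Gas5 was most like Zfas1 (0.96), and Snhg15 was most like Snhg6 (0.95) and least like Snhg1 (0.54). Of 9340 further genes with a mean log2 CPM of at least 3, those most like the mean standardized profile of the 9 were Mtmr3 (0.998), a phosphoinositide phosphatase, Gtpbp2 (0.987), a GTPase that acts on stalled ribosomes, Snhg16 (0.986), itself a snoRNA host, Mrpl24 (0.984), a mitochondrial ribosomal protein, and Iars (0.984), the isoleucyl-tRNA synthetase.

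Coding genes that begin beside the hosts did not move alike. Slc3a2, the heavy chain of several amino acid transporters, starts 106 bases from Snhg1 on the opposite strand and rose by 1.69 ± 0.02, 1.53 ± 0.02 and 2.17 ± 0.02 on the log2 scale in the same order of lines, above Snhg1 in each line. Zbtb37, a zinc finger gene 427 bases from Gas5, rose by 0.41 ± 0.07, 0.92 ± 0.07 and 0.68 ± 0.08. Znfx1, a helicase gene 81 bases from Zfas1, rose by 0.16 ± 0.03 and 0.14 ± 0.03 in Melan-A and B16F0 and was not called in B16F10 (0.01 ± 0.03, adjusted p of 0.86). The difference between a host and its neighbour was not tested.

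**Figure D5:**
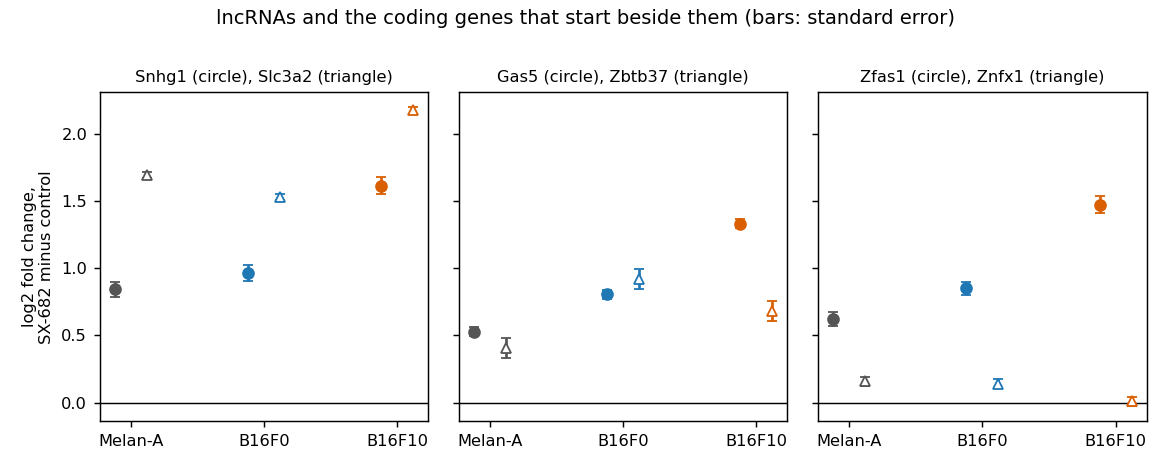
log2 fold change with SX-682 (y axis, bars ± SE) in each line (x axis) for 3 hosts (filled circles) and the coding gene that starts beside each on the opposite strand (open triangles). Slc3a2 lies above Snhg1 in each line, and Znfx1 lies between 0.01 and 0.16 while Zfas1 rises to 1.47.

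Further host genes were counted for comparison. Of 10 tested rows of other snoRNA-host lncRNAs, 2 rose in all 3 lines and 1 fell, against 11.3% and 11.7% of all genes. Snhg16 rose by 1.67 ± 0.08, 1.99 ± 0.08 and 2.77 ± 0.11 and Snhg17 by 0.67 ± 0.07, 0.75 ± 0.07 and 1.10 ± 0.08 in Melan-A, B16F0 and B16F10, whereas Snhg20 fell by 0.50, 0.92 and 1.07. The median of the 10 rows was 0.03, 0.05 and -0.35. The rise was thus not seen in every lncRNA of this class, and some of the others were low, such as Dancr and Snhg9 with mean log2 CPM of -0.17 and -2.07.

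Of 42 protein-coding snoRNA hosts, most of them ribosomal protein and translation factor genes, 29 rose in all 3 lines (69.0%, against 11.3% of all genes) and 6 fell (14.3%, against 11.7%). Their median log2 fold change was 0.25, 0.20 and 0.34, smaller than the 0.84, 0.85 and 1.35 of the lncRNAs. Eif4a2, an RNA helicase of translation initiation, rose by 0.88 ± 0.03, 0.61 ± 0.03 and 1.10 ± 0.03, and Hspa9, the mitochondrial heat shock protein, by 0.58 ± 0.02, 0.60 ± 0.02 and 0.81 ± 0.02. Hspa8, a cytosolic chaperone, fell by 0.20, 0.72 and 0.89.

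Of 19 tested genes for proteins that bind or assemble snoRNAs, 1 rose in all 3 lines (5.26%, against 11.3% of all genes) and 7 fell (36.8%, against 11.7%), with medians of -0.15, -0.08 and -0.29. These are RNA levels. Nop56, Nop58 and Dkc1 are also among the protein-coding hosts, and the falls of Nop56 and Dkc1 are counted in both lists. Dkc1, the pseudouridine synthase of H/ACA particles, fell by 0.72, 0.54 and 1.03, and Znhit3, an assembly factor of C/D particles, fell by 0.50, 0.68 and 0.99. Nufip1, another assembly factor, rose by 0.47 ± 0.05, 0.42 ± 0.05 and 0.53 ± 0.05.

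Of 22 nonsense-mediated decay factors, 2 rose in all 3 lines (9.09%, against 11.3% of all genes) and 6 fell (27.3%, against 11.7%). Upf1, the central helicase of the pathway, fell by 0.62, 0.08 and 0.80, and Upf3b, which links it to exon junctions, fell by 0.69, 0.21 and 0.60. Dhx34 rose by 0.73 ± 0.06, 0.62 ± 0.07 and 0.72 ± 0.06, and Smg6, the endonuclease, by 0.10 ± 0.04, 0.54 ± 0.04 and 0.25 ± 0.04. Of 22 genes with coding transcripts known as targets of this decay, 10 rose in all 3 lines (45.5%) and 7 fell (31.8%), against the same shares of all genes. Counts are per gene, so target isoforms and other isoforms of these genes cannot be told apart. The lists share genes. Eif4a2, Rps3, Rpl3 and Rpl12, which rose, were also counted as protein-coding hosts, and Smg5 and Upf3b, which fell, as decay factors. Ddit3, a stress-induced transcription factor, rose by 2.14 ± 0.04, 2.05 ± 0.04 and 3.50 ± 0.04, and Gadd45a, a growth arrest gene, by 1.21 ± 0.03, 2.38 ± 0.03 and 2.84 ± 0.03, whereas the splicing factors Srsf2 (fell by 1.20, 1.29 and 1.56) and Srsf3 (fell by 0.66, 0.61 and 0.80) went down. Decay, transcription and translation of these RNAs were not measured, and their part in the rise of the lncRNAs was not tested.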

How the data were processed

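RNA-seq was analysed from 12 libraries. The authors deposited raw read counts for 34513 genes, without normalization. The submitters' processing notes name cutadapt, STAR, DESeq2 and mm10, without versions or roles, and the counting rule, its strand setting and the annotation release are not given in the sources used here. Counts were fitted with edgeR 4.0.16 in R 4.3.3 (TMM scaling, filterByExpr keeping 18338 genes, 6 group means, no block, quasi-likelihood F-test, prior count of 0.125, Benjamini-Hochberg threshold of 0.05), with 6 residual and 21.9 prior degrees of freedom and a biological coefficient of variation of 2.78%. Standard errors came from the F statistic. The procedure was tested on simulated data, first with a criterion over all changed genes, which it missed at low counts, and then over genes above 1 CPM, which it met.

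All 12 columns were matched to libraries by name, and the replicates of each group differed by more than sampling noise (chi-square per gene of 2.87 to 5.25). Alternatives were DESeq2 1.42.0, RLE scaling, other filters and thresholds, a prior count of 2, a separate fit of each line, the replicate block and each library left out. The lncRNAs and the comparison lists were chosen with earlier results of these data known. Named were all 10 lncRNAs, snoRNAs inside them, neighbours that overlap or start within 1 kb, per list up to 2 genes with the largest rise and 2 with the largest fall called in all 3 lines, and the 5 genes most like the mean profile. The Gas5 transcript start shown, the other lncRNAs given as low examples and the ratios between lines were chosen after values or sequences were seen.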

Additional observations from a re-analysis of the deposited data

Results flagged for a closer look

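For 8 of the 9 tested lncRNAs the change with SX-682 differed among the 3 lines by the F-test of the interaction in edgeR's quasi-likelihood fit. The adjusted p was 9.55e-14 for Gas5, 3.19e-09 for Zfas1, 2.16e-08 for Snhg1 and 2.33e-08 for Snhg12. It was 2.4e-05 for Snhg5, 6.07e-05 for Snhg15, 0.00758 for Epb41l4aos and 0.0341 for Snhg6. The change was upward in all 3 lines for each of the 8, and 47.4% of all genes passed this test. With at least 10 counts required in every library, 8285 of 12326 genes passed it. Leaving out 1 library at a time gave 6 to 9 lncRNAs. No group held enough libraries for a test of single outlying samples.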

How the results depend on the processing

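Each of the 27 changes with SX-682 kept its direction and its call in all 513 values from other fits, the lowest being 0.30 on the log2 scale. With an absolute log2 difference of at least 0.5 required, 8 of the 9 were called in Melan-A, where Snhg8 was lost, and 9 in each B16 line. Other comparisons moved more, and with the same limit 4 lncRNAs were called between untreated B16F0 and Melan-A and 3 for the larger change in the B16 lines. Leaving out 1 library gave 5 to 8 calls in untreated B16F0 against Melan-A. Values not called as reported changed sign without 1 library: Snhg5 in B16 against Melan-A (-0.0345 without untreated Melan-A replicate 1, the highest value being 0.213), Snhg8 in B16F10 against B16F0 (-0.0131 and -0.0382 without untreated or SX-682 B16F10 replicate 2, the highest being 0.19) and Snhg12 in untreated B16F0 against Melan-A (0.0536 without untreated B16F0 replicate 1, the lowest being -0.107). The causes were not tested.

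Same-numbered libraries did not deviate together (r of 0.0104, -0.0751 and -0.00868 in Melan-A, B16F0 and B16F10 over 9348 genes), so no pairing by number was visible. Whether same-numbered libraries were handled together cannot be told from these values. With the replicate block, 9 lncRNAs were called in each line for SX-682 and 7 in untreated B16F0 against Melan-A, the Snhg8 difference alone passing out of the calls (0.15, adjusted p of 0.0522). Both libraries of a group give little spread of their own, so each test borrowed it from other genes and groups, and counting error limits Snhg3 most.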
